A study of Mus musculus with 8 samples.

Results

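The genes described here are 10 nuclear receptors of the intestine, chosen by symbol: Vdr, Hnf4a, Hnf4g, Nr1h4, Nr1h3, Nr5a2, Ppara, Pparg, Rxra and Esrra. They are 10 of the 55414 genes in the count table, and all 10 had enough reads to be tested. The table holds RNA-seq libraries of Paneth cells that were purified from mouse small intestine with a cell sorter. All mice were wild type (WT), of the C57BL/6J strain by the study's methods, and received an injection of PBS (4 libraries, PBS-1 to PBS-4) or of TNF, the inflammatory cytokine tumor necrosis factor (4 libraries, TNF-1 to TNF-4). The intestine was taken 3 hours later, and the study's methods describe each library as the Paneth cells of an individual mouse, about which the labels say nothing more than the replicate number. The study's methods say that its datasets include mice of both sexes, without giving the sex of each sample, and no age was found in the sources.

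Nuclear receptors are transcription factors that, in most cases, change their activity when a small lipid-soluble ligand binds them. Vdr binds the active form of vitamin D, Nr1h4 (FXR) bile acids, Nr1h3 (LXR alpha) oxysterols, and Ppara and Pparg fatty acids and their derivatives. These 5 bind DNA as a pair with a retinoid X receptor such as Rxra, whereas Hnf4a and Hnf4g act as dimers of the HNF4 type, Nr5a2 (LRH-1) binds as a monomer, and Esrra is an orphan receptor of mitochondrial energy genes. In the intestine they are known above all from absorptive enterocytes, where they control the uptake of calcium, lipids and bile acids, and Vdr is also known from Paneth cells, the crypt cells that secrete α-defensins.

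The libraries held between 23824717 and 32576077 counts. The defensin genes (28 Defa genes) took 32.0% to 37.9% of the counts in 7 libraries and 51.4% in TNF-4, which also stood apart from the rest on the second principal component. TNF-4 held 2010 counts on the 10 receptors together, against 5613 to 15253 in the other libraries. Values for each library are given as normalized CPM, which are CPM (counts relative to the library total) after scaling by the TMM factors of edgeR. Log2 fold changes are TNF over PBS with their standard error (SE), and adjusted p-values come from the quasi-likelihood test of edgeR, adjusted by Benjamini-Hochberg for the 13368 genes tested and called at 0.05. In bulk libraries, fewer cells that express a gene and less RNA of it in each cell cannot be told apart.

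After TNF, 6 of the 10 receptors fell and none rose. Vdr, Nr5a2, Rxra, Ppara, Hnf4a and Hnf4g were called lower (6 of 10), while Nr1h4, Nr1h3, Pparg and Esrra (4 of 10) did not pass the threshold. Over all tested genes, 19.6% were called lower and 23.3% higher. In the same 6 receptors, every TNF library was below every PBS library, which was the case for 19.7% of all tested genes. The median log2 fold change of the 10 receptors was -0.62, against 0.0262 over all tested genes. The 10 genes lie on 7 chromosomes, with 3 on chromosome 2 and 2 on chromosome 15.

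**Figure D1:**
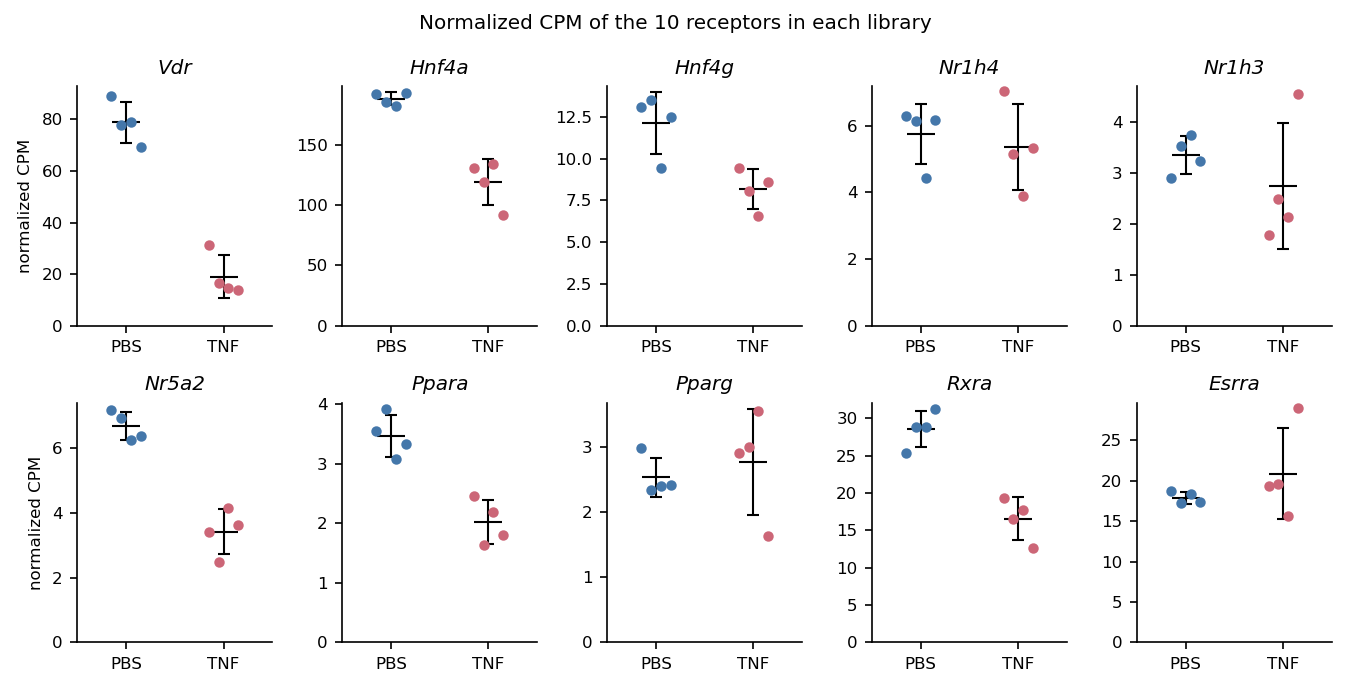
Normalized CPM (y axis, from 0) of each receptor in the 4 PBS (blue) and the 4 TNF (red) libraries; the bars are the mean and SD of 4 libraries. Vdr, Hnf4a, Hnf4g, Nr5a2, Ppara and Rxra have all TNF libraries below all PBS libraries, by the smallest gap in Hnf4g (9.44 against 9.46), and the other 4 receptors overlap.

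Vdr, the vitamin D receptor (ENSMUSG00000022479, chr15:97752306-97808511, GRCm39, minus strand), changed most among the 10. It stood at 88.9, 77.9, 78.7 and 69.4 normalized CPM in PBS-1 to PBS-4 and at 31.4, 16.6, 14.7 and 13.7 in TNF-1 to TNF-4. The TNF library with the most Vdr, TNF-1, was still well below the lowest PBS library, and the other 3 TNF libraries lay close together. The mean went from 78.7 ± 7.99 to 19.1 ± 8.28 (SD, n = 4 each), so that 24.3% of the PBS level was left (log2 fold change -2.04, SE 0.25, edgeR adjusted p = 8.05e-05). Only 1.84% of the tested genes had a larger fall. The estimate was -2.42 without TNF-1 and -1.90 without TNF-4. Vdr was an abundant transcript before TNF, at the 94.6th percentile of the tested genes by PBS level. Its counts were 1997 to 3316 in PBS and 159 to 883 in TNF, so that counting error is small beside the fall.

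The bases just before the start of the canonical Vdr transcript are shown because Vdr had the largest fall of the 10. The 97 bases are chr15:97806198-97806294 (GRCm39, minus strand, 5′ to 3′), the part of the 250 bases before the start that no annotated exon covers. Capitals mark GGGCGG, the core of a GC box, searched on both strands.
Vdr: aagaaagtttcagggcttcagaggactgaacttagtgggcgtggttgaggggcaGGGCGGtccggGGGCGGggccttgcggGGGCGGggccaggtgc
The 3 copies lie close to the start. GGGCGG was found in the 250 bases before the start of 5 of the 10 receptors (Vdr, Ppara, Pparg, Rxra and Esrra) and in 50.1% of the 11674 promoters of tested protein-coding genes. Of these 5, Vdr, Ppara and Rxra were called lower, and Pparg and Esrra were not.

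Rxra, the retinoid X receptor that pairs with Vdr, FXR, LXR and the PPARs (ENSMUSG00000015846, chr2:27566452-27653330, plus strand), fell less than Vdr. Its level was 25.4, 28.8, 28.9 and 31.2 normalized CPM in PBS-1 to PBS-4 and 19.4, 16.5, 17.8 and 12.6 in TNF-1 to TNF-4. TNF-4 was the lowest library, and no TNF library reached a PBS library. The mean went from 28.6 ± 2.37 to 16.6 ± 2.88 (log2 fold change -0.78, SE 0.14, edgeR adjusted p = 0.00116). Of the other retinoid X receptors, Rxrb was also called lower (-0.73, edgeR adjusted p = 0.000408), a gene looked up after the values were seen, and Rxrg had too few counts to be tested.

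Rxra was the only one of the 10 whose 250 bases before the start held a match to the NF-κB consensus, the motif of a transcription factor that acts downstream of TNF. The stretch is shown with the match in capitals (chr2:27566756-27567005, GRCm39, plus strand, 5′ to 3′). It also holds GGGCGG on the other strand, which is left in lower case.
Rxra: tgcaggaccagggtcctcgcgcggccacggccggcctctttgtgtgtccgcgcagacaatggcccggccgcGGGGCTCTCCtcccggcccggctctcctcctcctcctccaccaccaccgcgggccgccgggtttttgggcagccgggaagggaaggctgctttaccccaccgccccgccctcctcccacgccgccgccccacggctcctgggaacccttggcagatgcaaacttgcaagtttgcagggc
The consensus was matched in 8.37% of the 11674 promoters. A match in these letters is a description and says nothing about binding, and the absence of a match near Vdr or Hnf4a covers this window only.

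Hnf4a and Hnf4g, the HNF4 receptors of gut epithelium, both fell. Hnf4a (ENSMUSG00000017950, chr2:163348728-163414830, plus strand) was the most abundant of the 10, with 192, 185, 182 and 193 normalized CPM in PBS-1 to PBS-4 and 131, 119, 134 and 91.9 in TNF-1 to TNF-4. The PBS libraries were within a narrow band and the TNF libraries all lay below it, TNF-4 the lowest. The mean of 188 ± 5.56 went to 119 ± 19.2 (log2 fold change -0.66, SE 0.14, edgeR adjusted p = 0.00302). When libraries were scaled by total count alone, Hnf4a was no longer called (-1.0, edgeR adjusted p = 0.0512).

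Hnf4g (ENSMUSG00000017688, chr3:3573084-3724860, plus strand) had 13.1, 13.5, 9.46 and 12.5 normalized CPM in PBS-1 to PBS-4 and 9.44, 8.07, 6.60 and 8.59 in TNF-1 to TNF-4. PBS-3 and TNF-1 nearly touched, so the groups were separated by a hair. The PBS mean of 12.2 ± 1.85 compared with 8.18 ± 1.19 in TNF (log2 fold change -0.58, SE 0.16, edgeR adjusted p = 0.0125). Within each library the ratio of Hnf4g to Hnf4a counts was 0.0521 to 0.0732 in PBS and 0.0493 to 0.0935 in TNF, with overlap (difference of 0.10 on the log2 scale, exact permutation p = 0.743). Thus no shift between the HNF4 genes was detectable with 4 libraries a group.

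Nr5a2, or LRH-1, a receptor of crypt cells and of the gut's own steroid synthesis (ENSMUSG00000026398, chr1:136770303-136888186, minus strand), had the largest fall after Vdr. It was at 7.16, 6.92, 6.23 and 6.36 normalized CPM in PBS-1 to PBS-4 and at 3.41, 2.49, 4.14 and 3.61 in TNF-1 to TNF-4. All TNF libraries were clearly below the PBS libraries. The mean went from 6.67 ± 0.444 to 3.41 ± 0.688 (log2 fold change -0.97, SE 0.17, edgeR adjusted p = 0.00104). The 95% interval of Nr5a2, from -1.35 to -0.59, did not meet that of Vdr, from -2.58 to -1.50.

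Ppara, the receptor that turns on fatty acid oxidation (ENSMUSG00000022383, chr15:85618656-85687067, plus strand), was at 3.54, 3.91, 3.08 and 3.33 normalized CPM in PBS-1 to PBS-4. In TNF-1 to TNF-4 it was at 2.45, 1.63, 2.18 and 1.80, again without overlap. The mean went from 3.46 ± 0.352 to 2.01 ± 0.37 (log2 fold change -0.77, SE 0.19, edgeR adjusted p = 0.00732). This value has a limit of its own: 27.4% of the exon length of Ppara (1803 bases) is shared with exons of Cdpf1 on the opposite strand. Cdpf1 fell to the same degree (-0.75, SE 0.19, edgeR adjusted p = 0.0093). Its counts were 73 to 295 a library, up to 348% of the Ppara count in the same library. The library kit marks strand, but whether strand was used in the counting is not stated in the sources, so reads from the shared bases cannot be told apart between these genes.

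Pparg, the PPAR of lipid storage (ENSMUSG00000000440, chr6:115337675-115468268, plus strand), was the least abundant per length in PBS. It had 2.98, 2.34, 2.40 and 2.42 normalized CPM in PBS-1 to PBS-4 and 2.91, 3.01, 3.55 and 1.63 in TNF-1 to TNF-4. TNF-4 was the lowest of all 8 libraries while TNF-3 was the highest, and the groups overlapped. The log2 fold change of 0.16 (SE 0.23, 95% interval -0.34 to 0.66) did not pass the test (edgeR adjusted p = 0.603), and it was -0.17 when libraries were scaled by total count alone. The third PPAR gene, Ppard, is not among the 10 and is described with the other receptors.

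Nr1h4, the bile acid receptor FXR (ENSMUSG00000047638, chr10:89289742-89369497, minus strand), was not called. It was at 6.30, 6.14, 4.42 and 6.16 normalized CPM in PBS-1 to PBS-4 and at 7.03, 5.16, 3.90 and 5.33 in TNF-1 to TNF-4. The highest library and the lowest were both TNF libraries. The log2 fold change was -0.11 (SE 0.20, 95% interval -0.54 to 0.33, edgeR adjusted p = 0.689), and it was 0.03 without TNF-3. The 95% interval of Vdr (-2.58 to -1.50) does not meet that of Nr1h4, whereas that of Rxra (-1.09 to -0.47) overlaps it.

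Nr1h3, or LXR alpha (ENSMUSG00000002108, chr2:91014394-91033417, minus strand), was lower in 3 of the 4 TNF libraries. It had 2.90, 3.53, 3.75 and 3.24 normalized CPM in PBS-1 to PBS-4 and 1.78, 2.49, 2.14 and 4.55 in TNF-1 to TNF-4. TNF-4 alone lay above all PBS libraries, and the other TNF libraries lay below all of them. With the 8 libraries the change was -0.34 on the log2 scale (SE 0.27, edgeR adjusted p = 0.331). Without TNF-4 it was -0.63 (edgeR adjusted p = 0.0153), which made Nr1h3 the seventh receptor called lower, 7 of 10. Calls rose over the whole table too: 3266 genes were then lower and 3657 higher, against 2625 and 3121 with all 8 libraries. Exons of Acp2 on the opposite strand cover 5.06% of the Nr1h3 exon length, and Acp2 was called lower (-0.56, SE 0.12, edgeR adjusted p = 0.00301). Acp2 had 98 to 511 counts a library, up to 488% of the Nr1h3 count in the same library.

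Esrra, the estrogen-related receptor alpha (ENSMUSG00000024955, chr19:6888338-6899336, minus strand), was not called either. It had 18.7, 17.2, 18.4 and 17.4 normalized CPM in PBS-1 to PBS-4 and 19.3, 19.6, 15.7 and 29.0 in TNF-1 to TNF-4. TNF-4 was the highest library and TNF-3 the lowest. The log2 fold change was 0.21 (SE 0.17, 95% interval -0.16 to 0.59, edgeR adjusted p = 0.332), and -0.26 when libraries were scaled by total count alone. Exons of Trmt112 on the opposite strand cover 29.6% of the Esrra exon length, and the change of Trmt112 was 0.01 on the log2 scale (SE 0.12, edgeR adjusted p = 0.961).

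AGGTCA, the short core that many receptors of this family bind, was searched on both strands in the same windows. It was found in Hnf4g and Nr1h4, 2 of the 10, and in 11.3% of the 11674 promoters. Both stretches are shown outside annotated exons, with the match in capitals. They are chr3:3698955-3699204 on the plus strand for Hnf4g and chr10:89342521-89342761 on the minus strand for Nr1h4 (GRCm39, 5′ to 3′). In Nr1h4 the match is on the other strand and reads TGACCT.
Hnf4g: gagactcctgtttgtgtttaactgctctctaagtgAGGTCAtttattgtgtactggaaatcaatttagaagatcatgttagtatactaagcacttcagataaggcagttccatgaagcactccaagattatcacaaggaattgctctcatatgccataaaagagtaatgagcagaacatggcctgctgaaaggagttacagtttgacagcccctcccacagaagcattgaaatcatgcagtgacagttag
Nr1h4: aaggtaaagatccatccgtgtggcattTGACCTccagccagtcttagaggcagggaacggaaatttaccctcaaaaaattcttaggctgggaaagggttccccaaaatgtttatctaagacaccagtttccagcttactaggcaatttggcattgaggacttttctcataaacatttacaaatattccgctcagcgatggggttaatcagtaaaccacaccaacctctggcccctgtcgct
Their log2 fold changes were -0.58 for Hnf4g (95% interval -0.92 to -0.23) and -0.11 for Nr1h4 (-0.54 to 0.33), and the difference between them was not tested. CAAAGTCCA, known from HNF4 sites, was in none of the 10 windows and in 0.36% of all promoters. TATAAA was in the window of Nr5a2 only, and in 7.34% of all promoters.

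The calls depended on the scaling in part, as the plot of the changes under 4 fits shows. With libraries scaled by total count alone, the median of all tested genes moved to -0.38, and again 6 of the 10 receptors were called lower, against 18.1% of all tested genes called lower and 5.66% called higher. The 6 were not the same: Hnf4a was lost and Nr1h3 was gained. Vdr, Nr5a2, Ppara and Rxra were called lower under all 17 alternatives, with log2 fold changes of -2.42 to -1.90 for Vdr, -1.36 to -0.87 for Nr5a2, -1.13 to -0.70 for Ppara and -1.11 to -0.66 for Rxra. Hnf4g was missed only at the threshold of 0.01. None of these alternatives separated the reads from the bases that Ppara shares with Cdpf1.

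**Figure D2:**
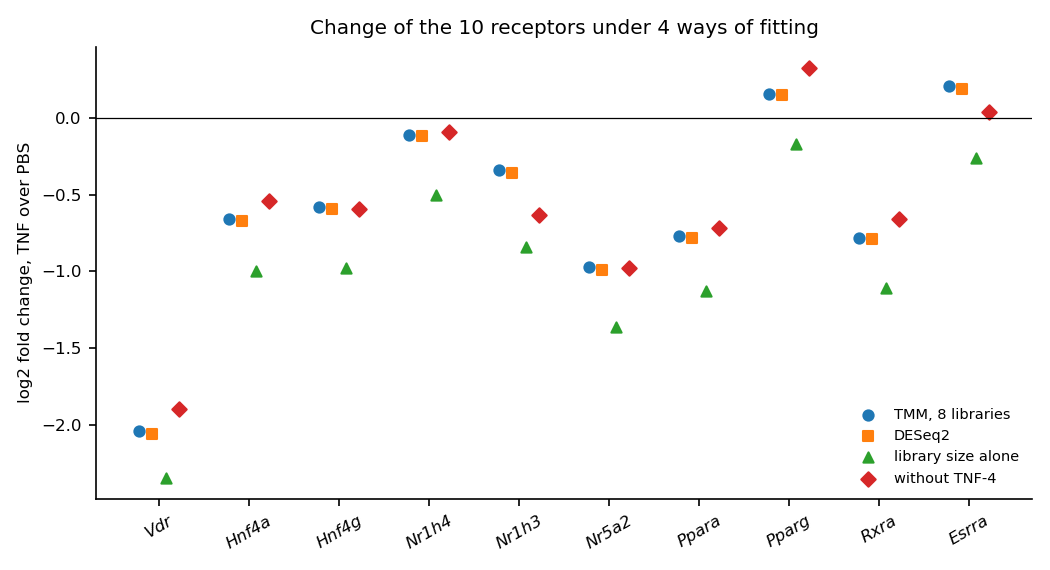
Log2 fold change (y axis, TNF over PBS) of the 10 receptors from edgeR with TMM scaling, from DESeq2, from edgeR with library size alone, and from edgeR without TNF-4. Vdr is the lowest in each fit (-2.04 with TMM scaling), and Pparg and Esrra are above 0 in all but the fit with library size alone, where they are at -0.17 and -0.26.

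The ratio of 2 receptors within a library does not depend on scaling, and 5 such ratios were compared, with exact permutation tests over all 70 assignments (two-sided, smallest possible p 0.0286) and Benjamini-Hochberg adjustment over the 5. Vdr counts were 3.50, 2.71, 2.73 and 2.23 times the Rxra counts in PBS-1 to PBS-4 and 1.62, 1.01, 0.823 and 1.08 times in TNF-1 to TNF-4. All TNF libraries had less Vdr for each Rxra count than any PBS library. The difference was -1.33 on the log2 scale (exact permutation p = 0.0286, adjusted p = 0.0714).

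The ratio of Pparg to Ppara moved up, with the limit given above for the bases that Ppara shares with Cdpf1. It was 0.841, 0.600, 0.782 and 0.728 in PBS-1 to PBS-4 and 1.19, 1.85, 1.63 and 0.905 in TNF-1 to TNF-4, without overlap, although TNF-4 came close to PBS-1. The difference was 0.87 on the log2 scale (exact permutation p = 0.0286, adjusted p = 0.0714). Both ratios reached the smallest p that the design allows and neither passed the threshold after adjustment. Nr1h4 relative to Rxra was 0.153 to 0.248 in PBS and 0.219 to 0.422 in TNF (difference 0.68, exact permutation p = 0.0571, adjusted p = 0.0952). Nr1h3 relative to Rxra was 0.104 to 0.130 in PBS and 0.0917 to 0.361 in TNF (difference 0.42, exact permutation p = 0.486, adjusted p = 0.607), and the difference was 0.02 without TNF-4 and 0.67 without TNF-1. Without TNF-3, 3 of these ratios, Vdr to Rxra, Pparg to Ppara and Nr1h4 to Rxra, each had a permutation adjusted p of 0.0476. All 3 then had a p of 0.0286, the smallest possible. Leaving out any other library gave a permutation adjusted p of 0.0714 to 0.143 for Vdr to Rxra and for Pparg to Ppara. For Nr1h4 to Rxra it gave 0.0952 to 0.19.

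**Figure D3:**
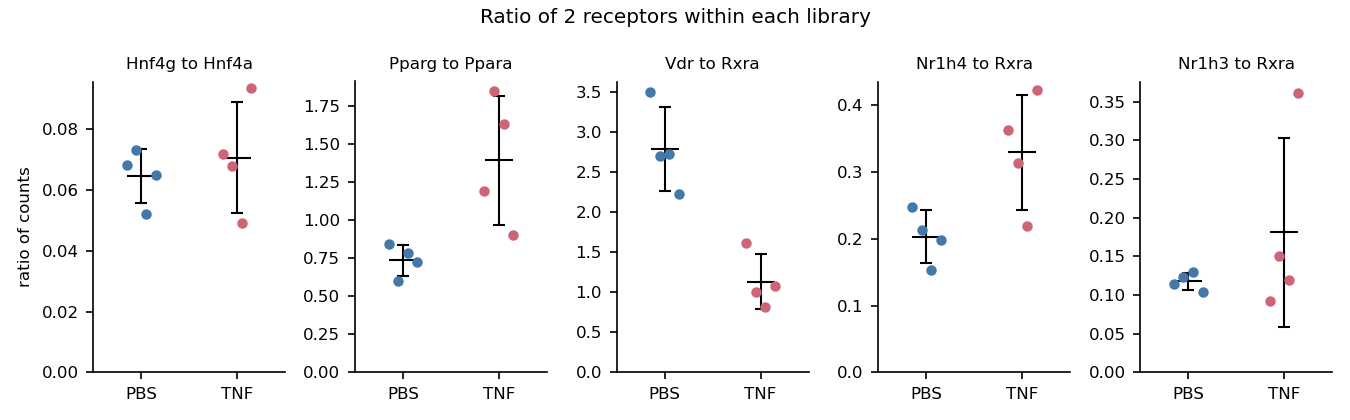
Ratio of the counts of 2 receptors within each library (y axis, from 0) for the 5 pairs, in PBS (blue) and TNF (red); the bars are the mean and SD of 4 libraries. Vdr to Rxra has a mean of 2.79 in PBS and 1.13 in TNF, and Pparg to Ppara 0.738 and 1.39, both without overlap.

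Levels of different receptors were compared per kilobase of exon length. In PBS, Hnf4a came first with 37.3 ± 1.10 normalized CPM per kb, then Vdr with 13.7 ± 1.39, Rxra with 4.16, Esrra with 3.59, Hnf4g with 2.77, Nr1h4 with 1.19, Nr5a2 with 0.773, Nr1h3 with 0.663, Ppara with 0.526 and Pparg with 0.364. The ranges of neighbours overlapped for Rxra and Esrra, for Nr5a2 and Nr1h3, and for Nr1h3 and Ppara. In TNF, Hnf4a stayed first with 23.6 normalized CPM per kb, and Esrra with 4.19, Vdr with 3.32 and Rxra with 2.41 followed. The range of Vdr overlapped with that of Esrra and with that of Rxra, while those of Esrra and Rxra did not overlap. In PBS the ranges of Vdr and Rxra had been far apart. The PBS order of Rxra and Esrra, and of Nr5a2 and Nr1h3, was the opposite when the canonical transcript's length was used. With the coding length, Nr5a2 (4.45) stood above Nr1h4 (3.96). Hnf4a and Vdr stayed first and second with each length tried.

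Among tested genes with at least 5 normalized CPM on average (8485 candidates), the patterns most like that of Vdr over the 8 libraries included those of Kdm4a, Pdk1, Gm49544 and Orai3, with Pearson's r of 0.987 to 0.990. The 8 libraries fall into the PBS and the TNF group, so these values mostly describe a shared fall and carry no p. These 4 were themselves called lower in TNF: Kdm4a, a histone demethylase, by a log2 fold change of -0.84, and Gm49544, a long noncoding RNA on chromosome 15 as Vdr is, by -1.36. Of the other receptors of the 10, Ppara had r = 0.94, Rxra 0.931 and Hnf4a 0.927 with Vdr, while Pparg had -0.02 and Esrra -0.417.

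Other genes of the family were examined next. Of the 39 other nuclear receptor genes, 26 were tested, of which 13 (50%) were called lower and 2 higher, against 19.6% and 23.3% of all tested genes, with a median log2 fold change of -0.52. Nr4a1, an immediate-early orphan receptor, fell most in the family (-2.28, SE 0.24, edgeR adjusted p = 3.38e-05), with 4.65 to 8.74 normalized CPM in PBS and 1.00 to 1.62 in TNF. Nr3c1, the glucocorticoid receptor, had 25.1 ± 2.19 normalized CPM in PBS and 9.62 ± 1.31 in TNF (-1.38, SE 0.13, edgeR adjusted p = 1.40e-05). Thra, the thyroid hormone receptor alpha, went from 18.5 ± 0.818 to 8.21 ± 0.945 (-1.16, SE 0.12, edgeR adjusted p = 2.42e-05). Vdr had the second largest fall of the 36 tested receptors.

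The 2 receptors that rose were named after their values were seen. Ppard had 53.8, 43.9, 45.0 and 59.9 normalized CPM in PBS-1 to PBS-4 and 153, 154, 196 and 99.9 in TNF-1 to TNF-4, every TNF library above every PBS library (1.57, SE 0.20, edgeR adjusted p = 0.000112). Thus Ppara was called lower, Pparg was not called and Ppard was called higher, and the 95% intervals of Ppara (-1.19 to -0.35) and Ppard (1.13 to 2.01) do not meet. Nr1h2, or LXR beta, the paralog of Nr1h3, rose by a smaller degree (0.38, SE 0.10, edgeR adjusted p = 0.0101), and was not called without PBS-1, TNF-1 or TNF-2 or without a filter on low counts. With libraries scaled by total count alone it was at -0.01 (edgeR adjusted p = 0.982).

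**Figure D4:**
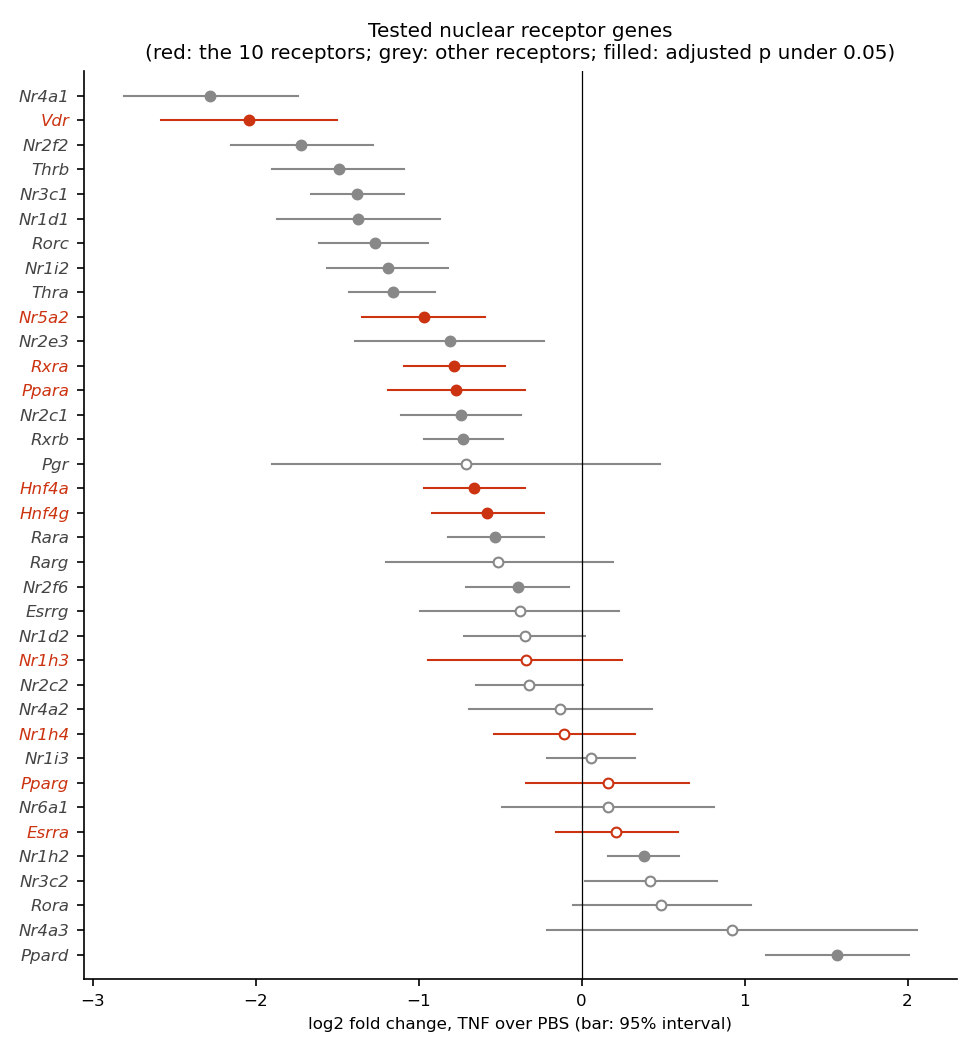
Log2 fold change (x axis, TNF over PBS) and 95% interval of the 36 tested nuclear receptor genes, from the lowest at the top; red are the 10 receptors, grey the others, and filled points have an adjusted p under 0.05. Vdr is second at -2.04, below Nr4a1 at -2.28, and Ppard stands at the other end at 1.57.

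The proteins that receptors recruit are their coregulators. Of 17 coregulator genes, all tested, 1 was called lower and none higher, against 19.6% and 23.3% of all tested genes, with a median log2 fold change of -0.01. Ep300, a histone acetyltransferase that coactivates many receptors, was the gene called (-0.54, SE 0.17, edgeR adjusted p = 0.0258), although its PBS and TNF libraries overlapped and the call was lost without TNF-3 (edgeR adjusted p = 0.0672). Tbl1xr1 and Hdac3, both of the corepressor complex, had -0.34 (edgeR adjusted p = 0.0624) and 0.27 (edgeR adjusted p = 0.0828). Without TNF-4, 2 coregulators were called higher, Hdac3 (0.32, edgeR adjusted p = 0.0261) and Prox1, the latter named after its value was seen.

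Targets of Vdr could hardly be followed. Of 9 vitamin D target and metabolism genes only Atp2b1, a plasma membrane calcium pump, was tested, and it changed by 0.01 on the log2 scale (SE 0.10, 95% interval -0.22 to 0.23, edgeR adjusted p = 0.952). The other 8 had at most 27 counts in a library, and when PBS-4 was left out 1 of the genes was called lower. Cyp24a1, which breaks down vitamin D and is its classic target, and the calcium channel Trpv6 had no count in any of the 8 libraries, which allows up to 3 counts a library.

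Of 14 listed target genes of PPARs 12 were tested, 7 were called lower and 1 higher (2 higher without TNF-4), against 19.6% lower and 23.3% higher over all tested genes, with a median of -0.56. Cpt1a, the entry step of fatty acid oxidation, had 75.4, 72.2, 66.7 and 92.7 normalized CPM in PBS-1 to PBS-4 and 31.5, 21.9, 27.0 and 21.2 in TNF-1 to TNF-4 (-1.59, SE 0.16, edgeR adjusted p = 2.14e-05). The groups lay far apart. Plin2, a lipid droplet protein, fell as well (-1.15, SE 0.15, edgeR adjusted p = 0.000133). The gene that rose, Acadl, an acyl-CoA dehydrogenase, was named after its value was seen (0.96, SE 0.19, edgeR adjusted p = 0.00184).

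The lists for the other receptors were small, and their shares of called genes are to be read against the 19.6% of all tested genes called lower and the 23.3% called higher. Of 9 LXR target genes 8 were tested, 2 were called higher and 2 lower (median -0.19): Srebf1, the regulator of fatty acid synthesis, rose (0.68, SE 0.09, edgeR adjusted p = 0.000221), as did Mylip (0.80, edgeR adjusted p = 0.00481, named after its value was seen). The sterol transporter gene Abcg5 (-1.12, SE 0.20, edgeR adjusted p = 0.00115) and the phospholipid enzyme gene Lpcat3 (-0.60, SE 0.14, edgeR adjusted p = 0.00476) fell, the latter not called with libraries scaled by total count alone (-0.93, edgeR adjusted p = 0.0612). Of 8 FXR target and bile acid genes 5 were tested, with 1 higher and none lower (median 0.42). The number called higher was 2 without TNF-3 and with DESeq2, 3 without a filter on low counts, and 0 with a filter of 1 CPM or with libraries scaled by total count alone. Slc51b, a subunit of the bile acid exporter, was the gene that rose (1.57, SE 0.36, edgeR adjusted p = 0.00476) at a level of at most 0.945 normalized CPM. Its partner subunit Slc51a had 0.42 (edgeR adjusted p = 0.0723). Fabp6, the ileal bile acid binding protein, had 1.42 (edgeR adjusted p = 0.10), with TNF libraries from 0.667 to 11.3 normalized CPM, and was called without TNF-3, the lowest of them (1.81, edgeR adjusted p = 0.0129).

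Of 7 HNF4 target genes 6 were tested, with 1 higher and 1 lower (median -0.44), and 2 lower without PBS-4. Apoa4, an enterocyte apolipoprotein, fell from a low level (-3.94, SE 0.70, edgeR adjusted p = 0.00112), and Mttp, which loads lipid onto apolipoprotein B, had -0.55 (edgeR adjusted p = 0.147). Of 7 ERR alpha targets, all tested, 1 was higher, Cycs, the gene of cytochrome c (1.14, SE 0.23, edgeR adjusted p = 0.00264), and none lower (median -0.03, and 1 lower without PBS-4), with -0.17 for Mdh2, which was not called (edgeR adjusted p = 0.343). Of 8 LRH-1 and steroid synthesis genes 4 were tested, with 1 higher and 1 lower (median 0.59, which was 0.23 without TNF-4). Fdxr, which passes electrons to steroid enzymes, fell (-1.34, SE 0.26, edgeR adjusted p = 0.00182). Ccne1, cyclin E1, rose (0.94, SE 0.30, edgeR adjusted p = 0.0269), a call lost without PBS-1, PBS-2 or TNF-1, and Hsd11b2 had 0.76 (edgeR adjusted p = 0.14). Cyp11a1 and Cyp11b1 of steroid synthesis were among the 4 genes with at most 3 counts in a library.

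**Figure D5:**
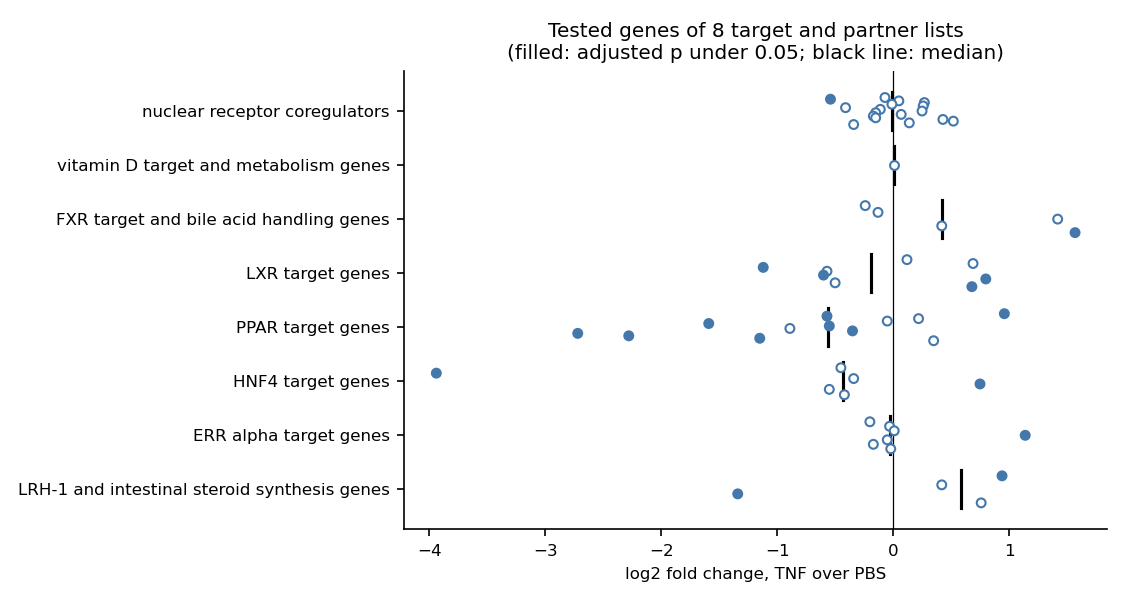
Log2 fold change (x axis, TNF over PBS) of each tested gene in the lists of coregulators and receptor targets; filled points have an adjusted p under 0.05 and the black line is the median of the list. Most filled PPAR targets lie to the left (7 of 8), and the coregulators lie near 0 (median -0.01).

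Over the 9 lists together, 25 of 86 tested genes (29.1%) were called lower and 9 (10.5%) higher, against 19.6% and 23.3% of all tested genes. With libraries scaled by total count alone only 1 was called higher, so the rises of Nr1h2, Srebf1, Mylip, Slc51b, Cycs, Acadl and Ccne1 depended on the scaling, whereas Vdr, Nr4a1, Nr3c1, Thra, Cpt1a and Plin2 were called lower under all alternatives.

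Markers of other cells were examined because these receptors are best known from enterocytes. Their counts of called genes are to be read against the 19.6% of all tested genes called lower and the 23.3% called higher. Paneth cell markers (Lyz1, Defa24, Itln1, Mmp7, Ang4 and Sox9) summed to 270000 to 395000 normalized CPM in PBS and 337000 to 1030000 in TNF, the highest being TNF-4, and 393000 at most without it, and of the 6 only Sox9 was called (0.67, edgeR adjusted p = 0.00073). The 8 enterocyte markers summed to 362 to 428 normalized CPM in PBS and to 178 to 196 in TNF, so they moved with Vdr and the other 5 receptors. Of the 7 tested, 2 were called lower, among them Anpep (-1.37, edgeR adjusted p = 0.000261), which alone had 233 to 270 normalized CPM in PBS and 60 to 120 in TNF. The brush border markers Alpi and Lct were near 0, with at most 1.66 and 2.44 normalized CPM in any library, and Treh was not tested. Stem cell markers summed to 1460 to 2350 in PBS and 1310 to 1860 in TNF, with 4 of 5 called lower. Most of this sum was Olfm4, which was not called (-0.23, edgeR adjusted p = 0.419). The log2 fold changes of the other stem markers were -1.21 for Lgr5, -2.13 for Ascl2, -1.53 for Axin2 and -0.56 for Smoc2. Immune markers were at 10.1 to 14.7 in PBS and 14.0 to 71.4 in TNF, 16.8 at most without TNF-4. Of the 3 tested, Cd52 was called higher (1.69, edgeR adjusted p = 0.0118), and Ptprc was among the 6 of 9 too low to test. Enteroendocrine markers moved the other way, with sums of 25.5 to 33.2 in PBS and 47.2 to 122 in TNF (55.8 at most without TNF-4), and 3 of 4 tested were called higher. Goblet markers summed to 7160 to 11200 in PBS and 11200 to 25500 in TNF (12000 at most without TNF-4), with 1 of 7 called higher and 2 lower. Tuft markers summed to 11.9 to 27.3 in PBS and 7.58 to 52.9 in TNF (14.7 at most without TNF-4), with none of 3 called by edgeR. Stroma markers were near 0, with sums of 0.223 to 0.453 in PBS and 1.23 to 1.73 in TNF, and Vim, the only 1 of 6 tested, was called higher (2.05, edgeR adjusted p = 0.00092). The part of RNA from any of these cells in the fall of the receptors was not tested.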

How the data were processed

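Each sample was a library of sorted Paneth cells, with 4 libraries a group. The deposited table holds raw counts per Ensembl gene made by the authors, with STAR 2.7.10a, FastQC 0.12 and the mm39 build named in the submitters' processing notes. The sources name neither the counting tool nor its strand setting. Of 55414 gene IDs, 54749 were matched to GENCODE M39 (GRCm39) for symbols, exon lengths and positions. Genes were filtered with filterByExpr and tested with edgeR 4.0.16 (R 4.3.3, TMM scaling, quasi-likelihood test, two-sided, no covariates) over the whole table. Ratios of 2 receptors were tested with exact permutation. Alternatives were other scalings and filters, DESeq2 1.42.0, limma-voom 3.58.1, replicate number as a block, a threshold of 0.01 and leaving out each library. The main edgeR fit was also tried on counts simulated from the PBS mean. These had far fewer changed genes than the data and no shift in composition like that of TNF-4, so they do not cover that case. Totals of 23824717 to 32576077 counts a library make counting error small for all but the lowest genes (the lowest receptor count was 19), and floors cover counting error only. Promoter windows, of 250 bases before the canonical start, were read from GRCm39. The receptors and gene lists were chosen with earlier results of these data known. Named genes were the 10 receptors, the 3 tested genes of each list with the smallest p, and the 5 genes most like Vdr by Pearson's r of log2 normalized CPM (prior count 2). Others are marked as named after their values were seen. Some genes that this rule names are not reported here. Where the replicate is an individual mouse by the study's methods only, p-values measure the spread between these libraries.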

Additional observations from a re-analysis of the deposited data

Results flagged for a closer look

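In 30 groups of 4 libraries (the 10 receptors and 5 ratios in PBS and in TNF), 3 had a library far from the others by Dixon's criterion, which chance alone gives in about 1 of 20 groups. Vdr in TNF-1 was 31.4 normalized CPM, above the other TNF libraries and below every PBS library. Nr1h4 in PBS-3 was 4.42 normalized CPM, under the other PBS libraries. Pparg in PBS-1 was 2.98 normalized CPM, above the other PBS libraries.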

How the results depend on the processing

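The number of receptors called lower was 6 in all fits but those at adjusted p under 0.01 (5) and without TNF-4 (7), and 0 receptors were called higher in any. At adjusted p under 0.01, 1691 genes of the whole table were called lower and 2218 higher. Without TNF-4, 3266 were called lower and 3657 higher, against 2625 and 3121 in the main fit. With library size alone, 757 genes of the whole table and 1 gene of the 9 lists were called higher, and the log2 fold changes of Pparg (-0.17), Esrra (-0.26), Hdac3 (-0.09) and Atp2b1 (-0.35) changed sign. Nr1h4 was at -0.50 with library size alone and from -0.30 (without TNF-1) to 0.03 (without TNF-3) when a library was left out. Atp2b1, at 0.01, was at -0.00 with RLE scaling, with DESeq2 and with a filter of 1 CPM, at -0.03 without a filter, and from -0.04 to 0.08 when a library was left out. Leaving out a library gave ranges of -0.04 to 0.26 for Hnf4g to Hnf4a (-0.04 without TNF-4), 0.72 to 1.06 for Pparg to Ppara, -1.51 to -1.19 for Vdr to Rxra, 0.02 to 0.67 for Nr1h3 to Rxra and 0.55 to 0.86 for Nr1h4 to Rxra on the log2 scale. Without TNF-3, Pparg to Ppara was 0.78, Vdr to Rxra -1.19 and Nr1h4 to Rxra 0.86, with a permutation adjusted p of 0.0476 each. Leaving out any other library brought no ratio under 0.05. The labels do not say whether same-numbered libraries form pairs. Deviations of same-numbered libraries correlated at 0.023, 0.066, -0.144 and -0.126, which with 4 libraries a group does not settle it. With the replicate block, 6 receptors were again called lower (Vdr -2.12, edgeR adjusted p = 0.000301), as were 2346 genes of the whole table, with 2741 higher. The exact sign-flip test of this pairing cannot go below 0.125, which Vdr to Rxra, Pparg to Ppara and Nr1h4 to Rxra reached. The causes of these changes were not tested. Levels near 2 normalized CPM, as of Pparg and Ppara, rest on few counts, and 4 libraries a group limit every interval.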
